A study of Mus musculus with 768 samples.

Results

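The cells described here are thymocytes that fell in the DN1 gate and carried transcripts of natural killer (NK) cell receptors. A cell was taken when it had at least 1000 detected genes and at least 2 counts in 3 or more of 5 genes: Klrb1c (NK1.1), Klrk1 (NKG2D), Klre1, Klrd1 (CD94) and Nkg7, a protein of cytotoxic granules. The rule found 130 NK receptor-positive cells among the 240 cells kept in the DN1 gate, and none among the 435 kept cells of the DN2-3 gate. They were 80 of 86 wild-type (WT) cells (93%, 95% exact binomial interval 85.4 to 97.4), 39 of 96 cells labelled Tcf7-/- (40.6%, 30.7 to 51.1) and 11 of 58 cells labelled Vav-cre (19%, 9.87 to 31.4). The other 110 DN1 cells, 6 WT, 57 Tcf7-/- and 47 Vav-cre, served as the comparison. Intervals in this section are 95% and cover counting error only.

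NK receptors of the lectin family are encoded in the same gene complex, and many of them bind MHC class I or class I-like proteins on target cells. Some members pass an inhibitory signal, such as most Ly49 receptors (Klra genes) and the pair of Klrd1 with Klrc1 (NKG2A). Others activate the cell through the adaptors encoded by Tyrobp, Hcst and Fcer1g. The same receptors are found on NK cells, on some innate lymphocytes and on T cells with innate-like behaviour, including NKT cells and certain gamma-delta T cells, and granzymes and perforin carry out their killing. Tcf7 encodes TCF1, a transcription factor used in T-cell development and also in NK cells and other innate lymphocytes.

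The source was the thymus of C57BL/6 mice 6 to 8 weeks old, with no treatment named. The groups were WT, germline Tcf7-/-, and Vav-cre; Tcf7fl/fl, in which the recombinase acts across blood cells. The gate was CD45+, lineage-negative, CD4-, CD8-, CD25- and CD44+, and the antibodies behind the lineage gate are not listed in the labels. Each genotype gave 1 DN1 plate of 96 cells with no animal named, so genotype, animal and plate cannot be told apart and no test between genotypes was possible. A share is of sorted cells, so a lower number of NK receptor-positive cells in the thymus and a higher number of other cells in the gate cannot be told apart.

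The summed counts of the NK receptor-positive cells were 6678764 in WT, 1648402 in Tcf7-/- and 301108 in Vav-cre, and the median cell held 66554.5, 39592 and 20482 counts. Levels below are in CPM, a gene's summed counts scaled by these totals, so that the floor of 3 counts used for a gene at 0 is 0.449, 1.82 and 9.96 CPM. One Vav-cre cell with 122548 counts supplied 40.7% of the Vav-cre total. All 8 libraries of the series shared the same 96 well barcodes, and the Tcf7-/- DN1 library carried low counts that followed the same wells of other libraries. Setting every count to 0 that was at most 10% of the same gene's count in the same well of another library removed 1.33%, 6.53% and 7.81% of the counts and left 75, 24 and 10 NK receptor-positive cells, or 25% of Tcf7-/- cells. Any other library could give the match, so this setting can also remove a cell's own low counts. Over 1513 genes, up to 31 of 96 Tcf7-/- DN1 wells best matched the same well of another library, and at most 4 of 96 Vav-cre DN1 wells did. As a scale for differences between plates, 2 plates of one genotype and gate elsewhere in the series (Lck-cre, 91 and 87 cells) differed by a median of 0.25 in absolute log2 ratio over 3712 genes, and 2.69% of genes passed 2-fold. Those were DN2-3 cells and more of them than the 39 Tcf7-/- and 11 Vav-cre cells compared here. Sums over fewer cells vary more, so the 2.69% cannot be set against the shares of genes given below.

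Tcf7 itself was detected in 45 WT, 32 Tcf7-/- and 6 Vav-cre NK receptor-positive cells. Its level was 123 CPM (115 to 132) in WT, 94.6 (80.4 to 111) in Tcf7-/- and 186 (140 to 242) in Vav-cre, which is 0.768 times (0.643 to 0.912) and 1.51 times (1.13 to 1.98) the WT level. With well-matched counts set to 0 the levels were 116, 14 and 59.9 CPM, with a count in 21 of 75, 3 of 24 and 3 of 10 cells. Vav-cre stood below WT under that setting, which can also remove a cell's own low counts. Without the largest Vav-cre cell the Vav-cre level was 314 CPM. The part of Tcf7 covered by the reads is not given in the sources used here, so these levels do not check the deletion, and genotypes are given as labelled throughout.

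The 5 genes of the rule stayed within 2-fold of WT in the chosen cells of the other 2 libraries, except Klrb1c in Vav-cre (2.13-fold lower, 1.63 to 2.83, but 314 against 396 CPM without the largest cell). Klrb1c had 396 CPM (381 to 411) in WT, 438 (407 to 471) in Tcf7-/- and 186 (140 to 242) in Vav-cre NK receptor-positive cells. Its counts per cell ran from 0 through a median of 17 to 220 in WT, 0 through 5 to 120 in Tcf7-/-, and 0 through 4 to 23 in Vav-cre, so the 3 ranges overlapped and each held cells without Klrb1c. Klrk1, which encodes the activating receptor for stress-induced ligands, had 770, 819 and 1408 CPM. Klrd1, the common partner of the Klrc receptors, stood at 1177, 999.8 and 1428 CPM, and Klre1 at 420, 417 and 674. Nkg7 reached 2629, 3019 and 3607 CPM and had at least 2 counts in every one of the 130 cells. In the GENCODE vM21 annotation of mm10 the lectin genes lie together on chromosome 6, from Klre1 at chr6:129577905-129585827 to Klrk1 at chr6:129610323-129623864, with Klrb1c at chr6:128778485-128789215, and Nkg7 lies at chr7:43437073-43438249. These genes chose the cells, so their height over the other cells is a property of the rule.

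The summed level of the 5 genes per NK receptor-positive cell ran from 187 through a median of 5816 to 12871 CPM in WT, from 369 through 5266 to 16646 in Tcf7-/- and from 3778 through 6414 to 12694 in Vav-cre. In the other DN1 cells the medians were 778, 787 and 107 CPM. Just inside the rule, cells with exactly 3 of the 5 genes had a median summed level of 4044 CPM in WT (13 cells), 1274 in Tcf7-/- (15 cells) and 6340 in Vav-cre (1 cell). Just outside it, cells with exactly 2 genes had 863 (4 cells), 972 (20 cells) and 383 CPM (3 cells). The step at the threshold was thus smallest in Tcf7-/-, where the most cells stood beside it. With 10 counts required of each gene in place of 2, the rule kept 62, 22 and 8 cells.

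**Figure D1:**
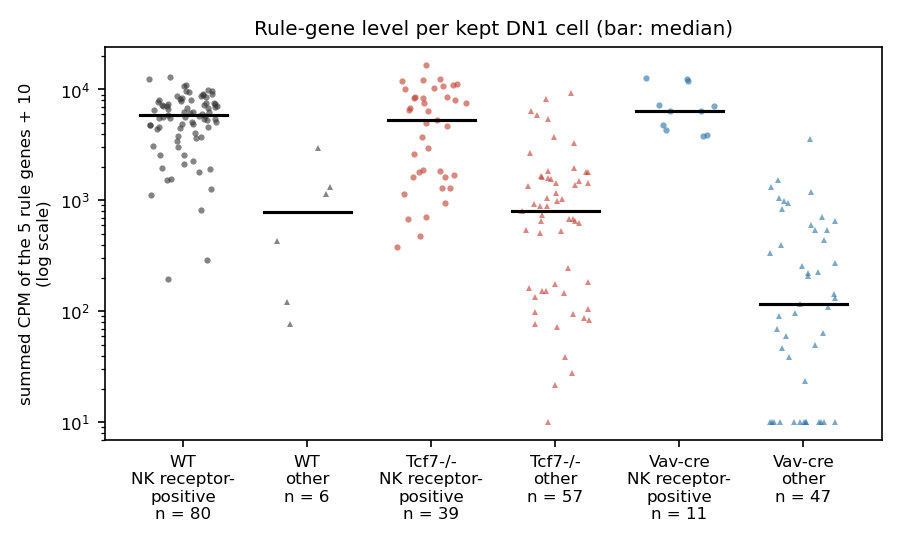
Summed level of Klrb1c, Klrk1, Klre1, Klrd1 and Nkg7 in each kept DN1 cell, in CPM plus 10 on a log axis, for NK receptor-positive and other cells of each library; each point is 1 cell and the bar is the median. The medians of the NK receptor-positive cells lie between 5266 and 6414 CPM, and Tcf7-/- holds many cells between the groups.

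The promoters of 2 rule genes are shown because all 4 rule genes with an entry in the RefSeq promoter table held the letters TGTGGT, the core recognised by Runx factors, within 250 bases before the start. Both sequences lie on the minus strand of chromosome 6 in GRCm38.p6, Klrb1c at chr6:128788642-128788891 and Klrk1 at chr6:129623865-129624114, and capitals mark the match, 89 and 129 bases before the start. The starts are those of RefSeq, and the Klrb1c window lies inside the GENCODE span of Klrb1c given above.
Klrb1c: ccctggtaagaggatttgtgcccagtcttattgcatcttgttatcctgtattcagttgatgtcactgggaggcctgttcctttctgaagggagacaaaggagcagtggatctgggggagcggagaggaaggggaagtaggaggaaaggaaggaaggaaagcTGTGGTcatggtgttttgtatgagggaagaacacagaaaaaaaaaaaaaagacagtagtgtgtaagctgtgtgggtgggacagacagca
Klrk1: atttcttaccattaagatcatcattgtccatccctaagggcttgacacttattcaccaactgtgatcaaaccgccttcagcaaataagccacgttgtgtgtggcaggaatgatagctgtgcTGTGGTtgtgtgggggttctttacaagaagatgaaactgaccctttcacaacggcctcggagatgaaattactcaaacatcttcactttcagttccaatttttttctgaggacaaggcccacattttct
Searched on both strands, TGTGGT was found in 14% of all 32851 promoter windows of that length, CTTTGA (the core of TCF and LEF factors) in 13.8% and AGGTGT (T-box factors) in 11.8%. Of the 4 rule genes, 0 held CTTTGA and 1 held AGGTGT. Runx3, which encodes one such factor, had 235, 198 and 249 CPM in WT, Tcf7-/- and Vav-cre NK receptor-positive cells. A match of 6 letters is a description of the sequence and was not measured as binding.

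Klrc genes and Xcl1 were among the genes higher in the chosen cells. Of 3034 genes at 50 CPM or more in a group of every library, 36 (1.19%) were at least 2-fold higher in NK receptor-positive than in other DN1 cells in all 3 libraries, the rule genes included, and 29 (0.956%) were lower. Library by library, 20.1%, 8.58% and 21.7% of genes were higher and 21.9%, 9.88% and 29.6% lower in WT, Tcf7-/- and Vav-cre. Because the same cells were chosen on genes of the same program, this contrast is a description and supports nothing further. The Klrc genes, which encode partners of Klrd1, were low in the other cells. Klrc2 (NKG2C) had 377, 307 and 329 CPM in the chosen cells, and 0, 14.7 and 6.42 in the other cells. Klrc1 had 236, 287 and 462 CPM against 0, 3.19 and 11.2. Xcl1, a chemokine that draws cross-presenting dendritic cells, stood at 406, 591 and 448 CPM against 9.22, 16.3 and 36.9.

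The next genes had one sign in all 3 libraries and a high or low mean ratio, though not each passed 2-fold in every library: Hsd11b1 did not in Vav-cre, nor did Ckb, Ccr6, Tmem176a and Actn2 in Tcf7-/-. The higher ones were Ms4a4b (1788, 1644 and 2092 CPM against 493, 174 and 83.4), Ugcg (236, 274 and 226 against 32.3, 22.3 and 61.8), Inpp4b (351, 268 and 179 against 53, 35.8 and 41.7) and Hsd11b1 (295, 244 and 139 against 2.30, 82 and 78.6). Genes that were lower in the chosen cells included Ckb, a creatine kinase (92.5, 178 and 19.9 CPM against 694, 344 and 612), Ccr6, a chemokine receptor (49.3, 157 and 16.6 against 187, 203 and 926), and Tmem176a (123, 438 and 223 against 1157, 793 and 1457). Actn2 and Serpinb1a were lower in the chosen cells of each library too. Genes of antigen presentation also belonged to the lower genes, but rested on single cells: Cd74 had 382, 19.4 and 56.5 CPM against 1115, 202 and 1291, and 1 cell held 99.2% of its counts in the other WT cells and 94.7% in the other Tcf7-/- cells.

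Tbx21 and Il2rb joined the rule genes, while the transcripts that separate NK cells from other lymphocytes did not. Tbx21, the T-box factor T-bet, was at 121 CPM (113 to 129) in WT, 62.5 (51 to 75.8) in Tcf7-/- and 66.4 (40.6 to 103) in Vav-cre NK receptor-positive cells, with a count in 48, 15 and 2 cells. In the other DN1 cells it was at 6.91, 9.56 and 0 CPM. Il2rb, the receptor chain for interleukins 2 and 15, had 401, 460 and 631 CPM against 154, 185 and 136. Ncr1 (NKp46), a receptor carried by NK cells, had 0 counts in the 80 WT cells, 18 counts in 3 Tcf7-/- cells and 63 counts in 1 Vav-cre cell. Eomes, a T-box factor of NK cells, had 4, 10 and 1 counts, each in 1 cell.

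The same cells carried T-cell genes. Of the NK receptor-positive cells, 79 of the 80 in WT, 38 of the 39 in Tcf7-/- and 6 of the 11 in Vav-cre had at least 2 counts in 2 of the 3 CD3 genes, and so did 6 of 6, 55 of 57 and 9 of 47 other cells. At a requirement of 10 counts the NK receptor-positive cells with CD3 were 71 of 80 (88.8%, 79.7 to 94.7), 26 of 39 (66.7%, 49.8 to 80.9) and 5 of 11 (45.5%, 16.7 to 76.6), and the others 5 of 6, 17 of 57 and 4 of 47. With well-matched counts set to 0 these were 63 of 75, 19 of 24 and 4 of 10. The cut of 10 counts is fixed, and median depth was highest in WT and lowest in Vav-cre, so depth can bear on these shares. Cd3d alone stood at 1790, 1219 and 990 CPM and Cd3g at 1698, 1250 and 863. The coreceptor transcripts of the gate were nearly missing, with 2, 0 and 0 counts of Cd4 and 43, 1 and 0 of Cd8a. The constant genes of the T-cell receptor are not analysed here, so the cells are named by their NK receptors and given no cell type.

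**Figure D2:**
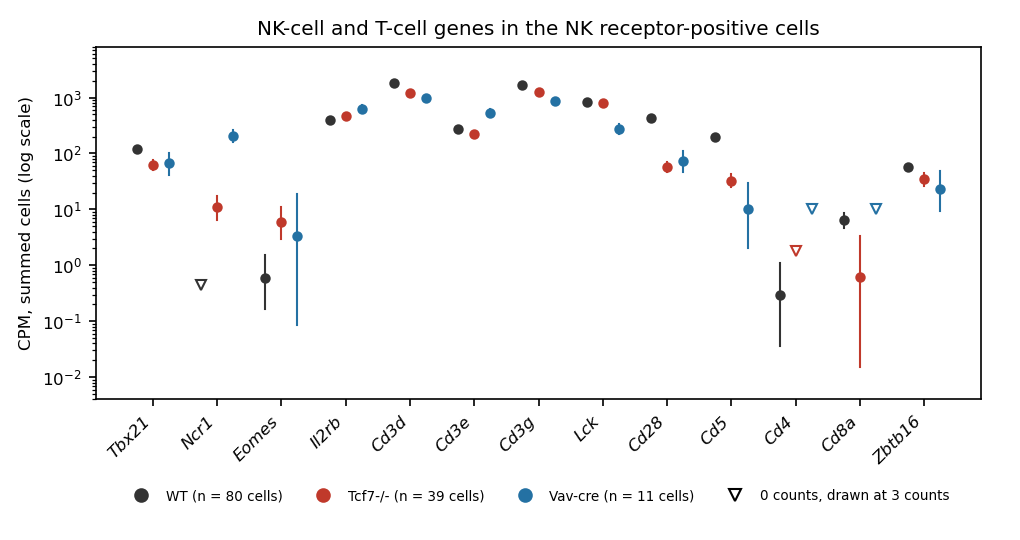
Level in CPM, on a log axis, of 13 genes that mark NK cells and T cells in the NK receptor-positive cells of the 3 DN1 libraries; points are summed cells, bars are 95% Poisson intervals and triangles mark a gene with 0 counts, drawn at 3 counts. Eomes stays under 10 CPM in each library and Ncr1 is at 0 counts in WT, 10.9 CPM in Tcf7-/- and 209 in Vav-cre, there from 1 cell, while Cd3d and Cd3g are among the highest genes.

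The cells without CD3 were not alike in the 3 libraries. In WT, the 9 cells under 10 counts had a median of 17501 counts per cell against 70872 in the 71 with CD3, and Klrb1c at 88.5 against 412 CPM. Among Tcf7-/- cells the 13 without CD3 had a median of 45523 counts against 38940.5 in the 26 with it, while Klrb1c was at 111 against 590 CPM. In Vav-cre the 6 without CD3 had Klrb1c at 225 CPM against 165, Fcer1g at 2926 against 82.3, and all of its Ncr1, 591 CPM against 0. The largest Vav-cre cell, with 122548 counts and 0 of Klrb1c, was 1 of the 5 with CD3. It lowers their Klrb1c level, so the direction of Klrb1c in Vav-cre rests on that cell. These splits were made on measured genes and are given as values only.

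**Figure D3:**
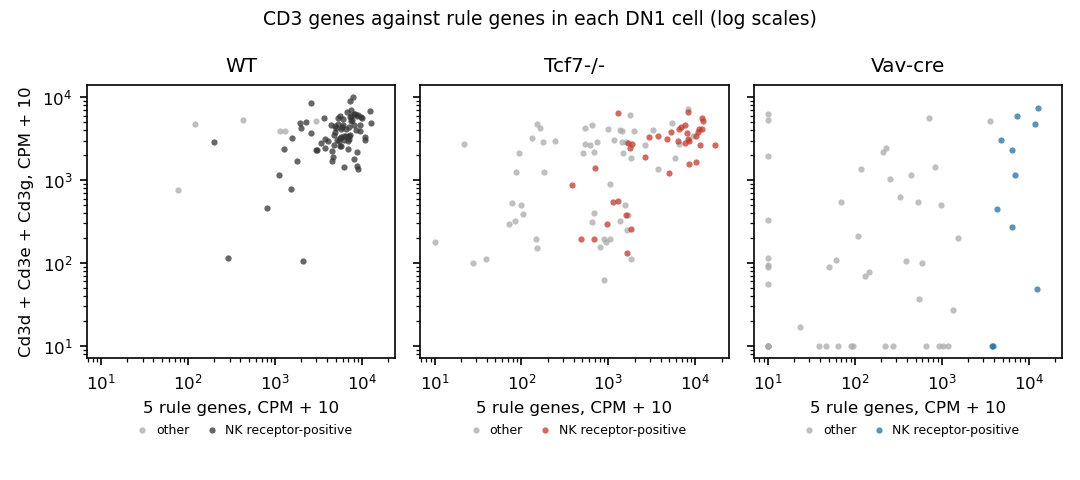
Summed level of Cd3d, Cd3e and Cd3g against that of the 5 rule genes in each kept DN1 cell, in CPM plus 10 on log axes, 1 panel per library. In WT 71 of the 80 NK receptor-positive cells have CD3 at 10 counts, in Tcf7-/- 26 of 39 and in Vav-cre 5 of 11.

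Genotypes were compared within the NK receptor-positive cells. The rule does not use genotype, but the cells it admitted differed between libraries in depth and in their level just inside the threshold, as given above. Against WT, 385 of 4034 genes (9.54%) were at least 2-fold higher in Tcf7-/- and 236 (5.85%) lower. In Vav-cre 1086 of 4336 genes (25%) were higher and 911 (21%) lower, and between Vav-cre and Tcf7-/- 1072 of 4482 (23.9%) were higher and 1047 (23.4%) lower in Vav-cre. These percentages are the background for every count below, and both WT comparisons share the 80 WT cells. The median log2 ratio over all genes was 0.03, 0.09 and 0.03.

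Ly49 receptors separated the genotypes more than any other receptor family listed. Klra9 (Ly49I, chr6:130178675-130193112), an MHC class I receptor, had 9583 counts in 77 of the 80 WT cells, with 0, a median of 42 and 971 counts as the range per cell. The 39 Tcf7-/- cells held 73 counts in 15 cells, with a median of 0 and a maximum of 39, and the 11 Vav-cre cells held 0. The level was 1435 CPM (1406 to 1464) in WT and 44.3 (34.7 to 55.7) in Tcf7-/-, 32.4-fold lower (25.7 to 41.4), and at least 144-fold lower in Vav-cre. The median WT cell, at 42 counts, stood just above the Tcf7-/- maximum of 39, so the ranges overlapped for many WT cells. With well-matched counts set to 0, Klra9 was at 1510, 42.1 and 0 CPM. The Tcf7-/- level then rested mainly on the 1 cell with 39 counts, whose WT well had 197. The next highest Tcf7-/- count, 15 in a well where WT had 331, was set to 0.

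Low Klra9 counts in Tcf7-/- DN1 cells followed the wells of the WT plate. Over all 96 wells the Tcf7-/- plate held 116 Klra9 counts, 1.21% of the 9596 on the WT plate. It had a count in 78.1% of the 32 wells where the WT plate had at least 100, with a median of 2, and in 17.2% of the other wells, with a median of 0. Spearman's rho between the plates was 0.66 over 96 wells that share only a barcode.

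**Figure D4:**
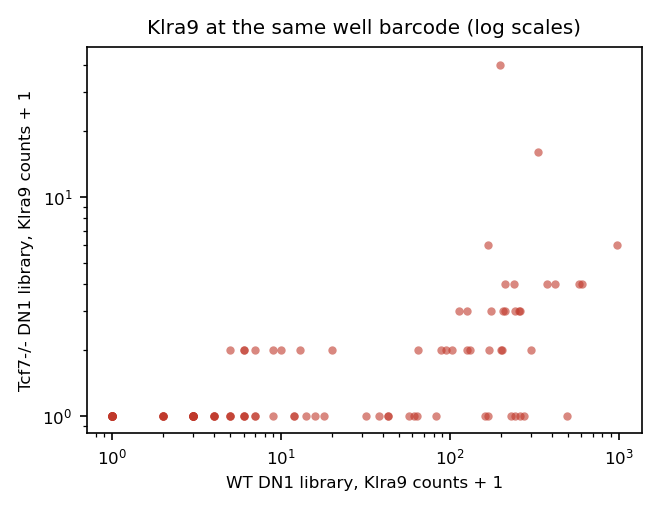
Klra9 counts plus 1 on log axes in each of 96 well barcodes, Tcf7-/- DN1 plate against WT DN1 plate; each point is 1 well. The Tcf7-/- counts stay at 39 or under and are more often above 0 where the WT well has at least 100.

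Other Ly49 genes were lower with Klra9, and 1 was higher. Klra1 (Ly49A) had 379 CPM in WT, 54 in Tcf7-/- (7.02-fold lower, 5.68 to 8.77) and 93 in Vav-cre (4.08-fold lower, 2.81 to 6.15). Klra7 (Ly49G) had 197, 33.4 (5.92-fold lower, 4.52 to 7.90) and 0 CPM (at least 19.8-fold lower), and Klra6 had 67.5, 6.67 and 0. Klra3 (Ly49C) had 241 CPM in WT, 2 counts in Tcf7-/- (199-fold lower, 54.9 to 1642) and 33 counts in a single Vav-cre cell. Klra5 (Ly49E, chr6:129898996-129917650) took the opposite direction, with 274 CPM (262 to 287) in WT, 839 (795 to 884) in Tcf7-/- and 963 (855 to 1081) in Vav-cre, 3.06-fold (2.85 to 3.28) and 3.51-fold (3.09 to 3.98) higher. Its counts per cell ran from 0 through a median of 0 to 239 in WT, 0 through 3 to 241 in Tcf7-/- and 0 through 0 to 111 in Vav-cre, and 38, 26 and 4 cells had a count. With well-matched counts set to 0, Klra5 stood at 274, 1344 and 1086 CPM.

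Of 13 Ly49 genes in the file, 7 were measured at 50 CPM or more in either comparison with WT. In each, 1 was higher and 6 were lower, with medians of -2.60 for Tcf7-/- and -2.95 for Vav-cre on the log2(CPM + 10) scale (-2.76 with genes at 0 set to their bound). A gene was measured when either group reached 50 CPM. Klra9, Klra7 and Klra6 were under 50 CPM in both Tcf7-/- and Vav-cre. They entered through WT and could not have been counted as higher, so the filter bears on the counts and medians. Cells with 2 or more Ly49 genes at 10 counts made up 55% in WT, 7.69% in Tcf7-/- and 9.09% in Vav-cre. None reached 10 counts in 21 of 80, 20 of 39 and 7 of 11 cells. The cut of 10 counts is fixed, while the median cell held 66554.5, 39592 and 20482 counts, so depth can bear on these shares. Ly49 genes are near-identical copies, and how the authors' counting split their reads is not given in the sources used here, so single members are uncertain. Klra8 and Klra10 were under the filter, and Klra2 and Klra4 had 0 counts in all 3 groups.

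The promoters of 3 Ly49 genes are shown to compare the copies that went in different directions. All lie on the minus strand of chromosome 6 in GRCm38.p6: Klra9 at chr6:130193113-130193362, Klra6 at chr6:130026955-130027204 and Klra5 at chr6:129913225-129913474. The starts are again those of RefSeq, and the Klra5 window lies inside the span of Klra5 given above. Capitals mark CTTTGA on the strand shown, which was found on either strand in 2 of the 11 Ly49 genes with an entry, Klra6 (106 bases before the start) and Klra7.
Klra9: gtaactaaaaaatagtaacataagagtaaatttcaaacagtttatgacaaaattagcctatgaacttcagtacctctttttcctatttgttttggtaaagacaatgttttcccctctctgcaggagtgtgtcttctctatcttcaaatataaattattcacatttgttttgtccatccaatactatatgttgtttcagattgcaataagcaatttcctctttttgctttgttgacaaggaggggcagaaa
Klra6: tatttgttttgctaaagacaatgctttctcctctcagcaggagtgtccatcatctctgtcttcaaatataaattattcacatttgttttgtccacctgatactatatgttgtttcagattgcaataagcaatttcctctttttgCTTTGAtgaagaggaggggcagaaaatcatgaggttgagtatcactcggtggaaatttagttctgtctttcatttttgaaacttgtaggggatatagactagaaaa
Klra5: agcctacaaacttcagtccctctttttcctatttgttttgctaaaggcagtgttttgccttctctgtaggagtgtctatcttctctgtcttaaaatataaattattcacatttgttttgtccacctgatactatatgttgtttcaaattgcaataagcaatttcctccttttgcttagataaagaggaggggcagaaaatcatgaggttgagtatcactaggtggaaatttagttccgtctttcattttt
Over aligned bases, the Klra9 window was 97% identical to that of Klra3 (231 bases), 92.2% to that of Klra6 (167) and 88.8% to that of Klra5 (196). TGTGGT was found in 1 of the 11, Klra1, and AGGTGT in 0. The other 4 windows compared, of Klra8, Klra4, Klra17 and Klra2, were 82.1%, 79.5%, 78.4% and 74.1% identical to that of Klra9.

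The other lectin receptors did not follow the Ly49 genes. Klrc1, the inhibitory partner of Klrd1, was at log2 ratios of 0.27 in Tcf7-/- and 0.94 in Vav-cre, and Klrc2, the activating one, at -0.29 and -0.19. Of 6 lectin genes outside the rule and the Ly49 family that were measured, 2 were higher and 0 lower in Tcf7-/- (median 0.48), and 3 higher and 0 lower in Vav-cre (median 0.99). Klrb1b, an inhibitory receptor of the NK1.1 family, was among them with 31, 201 and 428 CPM, 6.5-fold (5.45 to 7.77) and 13.8-fold (11 to 17.3) higher, but at 32.1, 15 and 464 CPM with well-matched counts set to 0, so that Tcf7-/- was then below WT. Klrb1b was also found in the other Tcf7-/- and Vav-cre cells, at 260 and 527 CPM. Styk1, a receptor-like kinase of NK cells, was lower: 313 CPM in WT, 112 in Tcf7-/- (2.81-fold lower, 2.41 to 3.28, and 325 against 174 without well-matched counts) and 1 count in Vav-cre (94.4-fold lower, 16.9 to 3729).

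Of the adaptors, Tyrobp and Hcst stayed within 2-fold of WT, while Fcer1g was higher in Tcf7-/-. Tyrobp (DAP12) had 320, 467 and 518 CPM, and Hcst (DAP10), the partner of Klrk1, 703, 553 and 515. Fcer1g, the shared signal chain of Fc receptors, had 875 CPM in WT, 1944 in Tcf7-/- (2.22-fold higher, 2.13 to 2.32) and 1089 in Vav-cre, with a median of 35, 45 and 19 counts per cell. Without the largest cell the Vav-cre level of Fcer1g was 1831 CPM. In Tcf7-/-, 2 of 10 measured genes of this list were higher and 0 lower (median -0.11). In Vav-cre 2 of 12 were higher and 1 lower (median 0.48), the higher ones being Fcgr3 and Ncr1, the latter in 1 cell.

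Granzymes A and B were higher in Tcf7-/- cells than in WT. Gzma, a granule protease, ran from 0 through a median of 1 to 774 counts per WT cell, from 2 through 11 to 1116 per Tcf7-/- cell and from 0 through 1 to 966 per Vav-cre cell. Its level was 517, 3457 and 3397 CPM, 6.69-fold higher in Tcf7-/- (6.41 to 6.98). Every one of the 39 Tcf7-/- cells and also every one of the 57 other Tcf7-/- DN1 cells had a Gzma count, and with well-matched counts set to 0 the levels were 500, 5374 and 3804 CPM. The same setting left a Gzma count in 9 of 75, 12 of 24 and 2 of 10 chosen cells, so the detection in every Tcf7-/- cell was not kept. In Vav-cre 94.4% of Gzma counts were in 1 cell, and the log2 ratio to WT was -0.34 without the highest cell of each group. Gzmb, the caspase-activating granzyme, had 251, 1460 and 910 CPM, 5.81-fold higher in Tcf7-/- (5.46 to 6.19), with medians of 7.5, 16 and 2 counts per cell. In Vav-cre 1 cell held 82.1% of Gzmb, and without the highest cells the log2 ratio was 0.18.

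Prf1 and Ctsw were within 2-fold of WT. Prf1, the pore-forming perforin, had 110, 135 and 133 CPM, and Ctsw, a cathepsin of cytotoxic cells, 1476, 1400 and 1607. Fasl, the death ligand, had 133 and 95.2 CPM in WT and Tcf7-/- and 0 counts in Vav-cre, at least 13.4-fold lower. Of the cytotoxic list 4 of 12 genes were higher and 0 lower in Tcf7-/- (median 0.42). In Vav-cre 3 of 13 were higher and 2 lower (median 0.12). Gzmc and Unc13d, further members of these counts, rested on 1 cell: 91.2% of Gzmc in Vav-cre (25.2, 74 and 947 CPM) and 75.2% of Unc13d in Tcf7-/- (81, 588 and 6.64 CPM). Unc13d in Tcf7-/- was at 129 CPM with well-matched counts set to 0.

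Ccl5 was higher than in WT in both libraries, and Ccl1 was found mainly in 1 cell. Ccl5 (RANTES) had 1068 CPM in WT, with a median of 4 and a maximum of 697 counts per cell, 2977 in Tcf7-/- (6 and 1130) and 4125 in Vav-cre (15 and 768). That is 2.79-fold (2.69 to 2.89) and 3.86-fold (3.63 to 4.10) higher, with overlapping ranges. A single cell held 9.78%, 23% and 61.8% of these counts, and without the largest Vav-cre cell the Vav-cre level was 2655 CPM. Ccl1 had 0 counts in WT and Vav-cre, and 1152 of its 1167 Tcf7-/- counts were in 1 cell. Ifng, the main cytokine of these programs, had 82.2, 67.3 and 136 CPM. In the cytokine list 3 of 6 genes were higher in Tcf7-/- (median 1.00) and 1 of 4 in Vav-cre (median 0.40), with 0 lower in either; the Tcf7-/- median was -0.02 without the highest cell of each gene. Of the cytokine receptors and STAT genes, 0 of 13 passed 2-fold in Tcf7-/- (median 0.18), while 1 of 14 was higher and 3 were lower in Vav-cre, among them Il21r and Tgfbr2.

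Among transcription factors Id3 was lower than in WT. Id3, an inhibitor of E proteins, had 227 CPM in WT, 42.2% of it in 1 cell, 24.9 in Tcf7-/- (9.14-fold lower, 6.70 to 12.8) and 2 counts in Vav-cre (34.2-fold lower, 9.46 to 283). Its relative Id2 was abundant in each group, at 3074, 2426 and 3700 CPM. Rora, a factor of innate lymphocytes, had 29.5, 110 and 146 CPM, and Ahr, a ligand-activated factor, 18.4, 121 and 53.1. These were, with well-matched counts set to 0, 30.8, 62.1 and 149.8 CPM and 9.63, 71.1 and 59.9. Zbtb16, the factor PLZF of NKT cells, had 57.6, 35.2 and 23.2 CPM. Over the list 7 of 21 genes were higher and 2 lower in Tcf7-/- (median -0.11), and 4 of 20 higher and 5 lower in Vav-cre (median 0.17).

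Ly6c2, a gene of the Ly6C antigen, was lower than in WT in both libraries. It had 1641 CPM in WT, 761 in Tcf7-/- (2.16-fold lower, 2.03 to 2.29) and 96.3 in Vav-cre (17-fold lower, 11.9 to 25.5), with a median of 56.5, 1 and 0 counts and a maximum of 939, 571 and 28 per cell. The difference for Tcf7-/- was under 2-fold with well-matched counts set to 0 (1728 against 1219 CPM) and with the rule at 10 counts (1797 against 1197). Cxcr3, a chemokine receptor of T-bet-expressing lymphocytes, had 395, 246 and 83 CPM (4.76-fold lower in Vav-cre, 3.22 to 7.36), and Cd27 383, 276 and 99.6 (3.84-fold lower in Vav-cre, 2.68 to 5.71). Cd2 differed by less, at 467, 354 and 379 CPM. The list gave 2 of 17 genes higher and 1 lower in Tcf7-/- (median -0.09), and 5 of 19 higher and 4 lower in Vav-cre (median -0.05). S1pr5, counted as higher in Vav-cre, was found in 1 Vav-cre cell.

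Cd28 and Cd5 were lower than in WT while Cd3d and Cd3g stayed within 2-fold of it. Cd28, the costimulatory receptor, ran from 0 through a median of 17.5 to 212 counts per WT cell, 0 through 0 to 31 per Tcf7-/- cell and 0 through 0 to 8 per Vav-cre cell. Its level was 424 CPM (408 to 440), 57 (46.1 to 69.8) and 73.1 (45.8 to 111), 7.43-fold (6.05 to 9.23) and 5.80-fold (3.82 to 9.27) lower, and 427, 82.1 and 82.4 with well-matched counts set to 0. Cd5, which dampens receptor signals, was lower too, at 196, 32.8 and 9.96 CPM (5.97-fold lower, 4.55 to 8.00, and 19.6-fold lower, 6.71 to 95.4). Lck, the kinase of the T-cell receptor, had 835 and 800 CPM in WT and Tcf7-/-, and 276 in Vav-cre (3.03-fold lower, 2.44 to 3.81). In the T-cell list Cd28 and Cd5 were the 2 lower genes of 16 in Tcf7-/-, with 0 higher (median -0.42). In Vav-cre 9 of 16 were lower and 1, Fyn, was higher (median -1.11; Fyn at 134 CPM in WT and 218 without the largest Vav-cre cell), beside a Vav-cre share of cells with CD3 that was the lowest of the 3.

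Markers of other cell types moved with some of these results. In Tcf7-/- cells 8 of 9 measured early progenitor genes were higher than in WT (median 2.03, and 1.14 with well-matched counts set to 0), among them Cd34, a surface protein of stem and progenitor cells (0, 54 and 23.2 CPM), and Kit, the receptor for stem cell factor (10.8, 63.1 and 3.32). Cd34 and Kit were under the filter of 50 CPM in WT, so they entered through Tcf7-/- and could not have been counted as lower. The 15 genes of the list summed to 207 CPM in WT and 917 in Tcf7-/-, so the filter bears on the count of 8 and on the median. Cd34 was at 0, 15 and 26.2 CPM and Kit at 11.4, 6.01 and 0 with well-matched counts set to 0. The summed level of the 15 progenitor genes ran from 0 to 1864 CPM per WT cell, 46 to 3729 per Tcf7-/- cell and 0 to 1212 per Vav-cre cell. Dntt, the terminal transferase of rearranging thymocytes, had a count in 37 of 39 Tcf7-/- NK receptor-positive cells and 56 of 57 others. Its level was 206 CPM as deposited and 5.01 with well-matched counts set to 0. Spearman's rho of Dntt between this plate and the others ran from -0.02 (Vav-cre DN1) to 0.39 (second Lck-cre plate) over 96 wells. For Klra9 it was 0.66 with the WT DN1 plate. Of 7 measured dendritic-cell genes, 4 were lower in Tcf7-/- than in WT (median -3.15), all genes of MHC class II presentation. A single WT cell held 73.3% of H2-Eb1, 68.5% of H2-Ab1 and 63.2% of Cd74, and the summed dendritic list ran from 0 to 55289 CPM per WT cell, 42.9 to 2578 per Tcf7-/- cell and 81.6 to 2642 per Vav-cre cell. Their part in the other differences was not tested.

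Beyond the lists, the genes with the largest ratios included interferon-induced membrane proteins. Ifitm2 had 44.8, 1324 and 1123 CPM, 29.6-fold (26.2 to 33.5) higher in Tcf7-/- and 25.1-fold (21.4 to 29.4) in Vav-cre, with a count in 12 of 80, 34 of 39 and 6 of 11 cells. Ifitm1 had 32.8, 388 and 206 CPM, and 5.6 in Vav-cre without the largest cell, where Ifitm2 had 582. Sdc4, a surface proteoglycan, had 4.49 and 150 CPM in WT and Tcf7-/- (33.4-fold higher), and Ffar2, a receptor for short-chain fatty acids, 4.79 and 171. Stom had 0 counts in WT and 83.7 CPM in Tcf7-/-, at least 186-fold higher. The Tcf7-/- levels of these 3 genes fell, with well-matched counts set to 0, to 14, 70.1 and 3 CPM, and the WT levels were 4.58, 5.05 and 0. In Vav-cre, Serpina3g, a protease inhibitor of activated lymphocytes, had 588 CPM against 16.9 in WT (34.7-fold higher, 27.3 to 44.4) with a count in 8 of 11 cells, and 124 in Tcf7-/-. Isg20 and Ap1b1 had 0 counts in Vav-cre and 190 and 134 CPM in WT, at least 19.1-fold and at least 13.5-fold lower.

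Genes of DNA replication stood out in Vav-cre through 1 cell. Top2a had 13.5, 13.3 and 382 CPM with 95.7% of the Vav-cre counts in 1 cell, and Smc2 had 52, 35.8 and 1352 CPM with 92.9%. Without the largest cell they were at 28 and 162 CPM in Vav-cre. Of the S-phase list, 13 of 16 measured genes were higher and 1 lower in Vav-cre than in WT (median 1.68), and the median was -0.76 without the 1 cell with the most counts. Between Vav-cre and Tcf7-/- cells, 13 of 15 were higher (median 2.20, and 0.22 without that cell). Lower in Vav-cre than in Tcf7-/- were Rgs10 (3.32 against 229 CPM), Cd24a (0 against 214) and Ly6d (0 against 189), the last a gene of early lymphocytes. The Tcf7-/- levels with well-matched counts set to 0 were 250, 74.1 and 19 CPM, so that setting removed most of the Ly6d level.

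**Figure D5:**
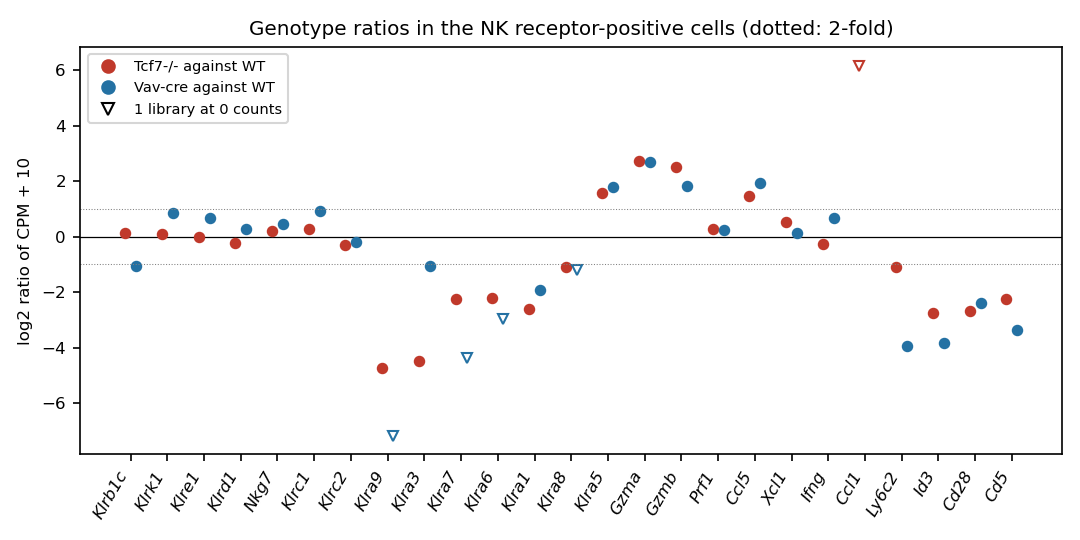
Log2 ratio of CPM + 10 for 25 genes in NK receptor-positive cells, Tcf7-/- against WT and Vav-cre against WT; an open triangle marks a gene with 0 counts in 1 of the 2 libraries, and both series share the WT cells. Klra9 lies at -4.73 and -7.17 and Klra5 at 1.58 and 1.78, whereas Gzma and Gzmb in Vav-cre rest on 1 cell.

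Within each library, the genes whose levels followed the rule genes most closely from cell to cell were Ms4a4b (mean Pearson's r 0.67), Xcl1 (0.65), Ctsw (0.55), Klrc2 (0.53), Gimap3 (0.53), Gimap4 (0.51), Gzmb (0.51), Klra5 (0.49), Klrc1 (0.49) and Cxcr3 (0.49). Each value is the mean over 86, 96 and 58 cells of the 3 libraries, and cells of a library share depth and well-matched counts. Klra5 was the 1 Ly49 gene among these 10, with r of 0.23 in WT, 0.66 in Tcf7-/- and 0.56 in Vav-cre. A gene with 0 counts in every kept cell of a library could not be ranked. In Vav-cre, 10 of the 13 Ly49 genes had 0 counts in the chosen cells and 11 in the other cells. Klra9 had none in either, so most Ly49 genes had little or no way into the ranking. The Gimap genes, small GTPases of lymphocyte survival, had 0 of 7 members past 2-fold in Tcf7-/- and 1 lower in Vav-cre, with Gimap4 at 919, 707 and 993 CPM.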

How the data were processed

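Single thymocytes were sorted into 96-well plates and read with a modified STRT protocol, per the labels, which also name Smart-seq2. Per the submitters' processing notes, reads were aligned with TopHat2 2.1.1 to mm10 (also given as GRCm38, except for the Tcf7-/- cells) and counted with HTSeq. The authors deposited whole-number counts per gene and cell without normalization, and log2 values, log2(TPM/10 + 1), which were used as an alternative; turned back, they were proportional to the counts within 0.157%. Whether molecular identifiers were collapsed is not given in the sources used here.

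From 23154 entries, 27 with a date for a symbol (0.141% of counts) were dropped. A cell needed 1000 detected genes to be kept. Counts were summed over the NK receptor-positive and the other cells of each library and scaled to CPM. Log2 ratios used a pseudocount of 10 CPM and genes at 50 CPM or more in a group compared. A call is a 2-fold difference. A gene under 50 CPM in 1 group enters through the other, which bears on the counts and medians of every list. Poisson, conditional binomial and Clopper-Pearson intervals are 95%. With 1 library per genotype no p-value is given. Cells were sorted singly and no doublet caller was run.

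Genes outside the 27 lists were named by rule: at 50 CPM and in 20% of cells of the higher group, the 15 highest and 10 lowest mean ratios to other cells with one sign in all 3 libraries, and the 10 highest and 10 lowest ratios per genotype comparison, without unnamed gene models, Xist and Y-linked genes. The members, lists and rules were chosen with earlier results of these data known. The summed totals run from 301108 counts in Vav-cre to 6678764 in WT, which makes intervals widest in Vav-cre. The scripts were tested on simulated data. Promoters are those of RefSeq on GRCm38.p6, aligned with Biopython 1.88. Python 3.11.15 with numpy 2.4.6, pandas 2.3.3, scipy 1.17.1 and matplotlib 3.10.9 and R 4.3.3 were used, with edgeR 4.0.16 and DESeq2 1.42.0 for scaling factors only. Some genes of the lists are not reported here.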

Additional observations from a re-analysis of the deposited data

Results flagged for a closer look

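For 7 genes of the lists, the log2 ratio of NK receptor-positive to other cells went past 2-fold in opposite directions in different DN1 libraries. None of these differences was tested, since each library is 1 plate, and the Vav-cre ratios rest on 11 cells and the WT ratios on 6 other cells. Ly6c2 was at 4.52 in WT and 4.18 in Tcf7-/- and at -1.11 in Vav-cre. Tgfbr2, a receptor chain for TGF-beta, was at 3.30 in WT and -1.41 in Vav-cre, and Irf8 at 3.82 in WT and -1.70 in Vav-cre. With well-matched counts set to 0 and the chosen cells taken anew, Irf8 in WT was at -0.72 (117 against 199 CPM), and without the largest cell Tgfbr2 in Vav-cre was at -0.75. The chemokine gene Ccl4 was at 1.63 in Tcf7-/- and -3.33 in Vav-cre, where the chosen cells had 0 counts. Unc13d was at 2.68 in Tcf7-/-, with 75.2% of its counts in 1 cell, and at -2.99 in Vav-cre. The Tcf7-/- direction of Unc13d was not kept: it had 129 CPM in chosen and 330 in other cells with well-matched counts set to 0, and 155 and 326 with the rule at 10 counts. The replication genes Mcm2 and Rrm1 were at -1.05 and -1.06 in Tcf7-/- and at 2.73 and 3.99 in Vav-cre, and Mcm2 was at 1.72 in WT. Without the largest cell Mcm2 in Vav-cre was at 0.58, and with well-matched counts set to 0 Mcm2 in WT was at -0.14 and Rrm1 in Tcf7-/- at -0.48.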

How the results depend on the processing

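The order of the shares, WT above Tcf7-/- above Vav-cre, was kept under every alternative tried, and the Vav-cre share stayed within its interval in each. The rule genes at 1, 5 and 10 counts gave WT shares of 100%, 82.6% and 72.1% and Tcf7-/- shares of 63.5%, 27.1% and 22.9%; 2 and 4 of 5 genes gave 97.7% and 77.9%, and 61.5% and 25%. Thinning each cell to 10000 counts gave 81.5% in WT, setting counts of 1 to 5 to 0 before the rule gave 79.1% and 25%, and setting well-matched counts to 0 gave 25% in Tcf7-/-. The last 2 settings, the 10-count rule and leaving out the largest Vav-cre cell were added after seeing the data.

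Counts of genes past 2-fold moved more. One setting left out cells with B, dendritic or myeloid genes, meaning at least 2 counts in 3 or more genes of 1 of these lists. It kept 44 of the 80 WT, 23 of the 39 Tcf7-/- and 7 of the 11 Vav-cre chosen cells. The cells left out are named by these genes and given no cell type. Genes lower in the chosen cells in all 3 libraries (29) were 52 with the rule at 5 counts, 45 at 10, 54 after thinning, 58 without well-matched counts, 11 with a pseudocount of 50 CPM, 81 with a filter at 10 CPM or none, 12 without the highest cell of each gene, 56 without cells with B, dendritic or myeloid genes and 5 from the deposited log2 values. The higher ones (36) were 21 with 4 of 5 rule genes, 22 with 50 CPM, 89 with the lower filters and 74 without those cells. For Tcf7-/- against WT, the lower genes (236) were 386 and 425 with the rule at 5 and 10 counts, 364 with 4 of 5 genes, 432 after thinning, 492 without well-matched counts, 377 with counts of 1 to 5 set to 0, 49 with 50 CPM, 764 with the lower filters, 499 without cells with B, dendritic or myeloid genes and 67 from log2 values. The higher ones (385) were 116 with 50 CPM, 951 with the lower filters, 222 without the highest cells and 599 without cells with B, dendritic or myeloid genes. For Vav-cre against WT, the higher genes were 625, 267 and 257 with 50 CPM, without the highest cells and from log2 values, and the lower ones 512, 2712 and 602 with 50 CPM, the lower filters and log2 values. For Vav-cre against Tcf7-/- the higher genes were 644, 334 and 185 under the settings first named, and the lower ones 611 with 50 CPM and 2842 with the lower filters.

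Among the lists and the genes the naming rule chose, these changed sign from a result of at least 1 in absolute log2. Sign changes of smaller results are not listed. The cytokine list in Tcf7-/- had a median of -0.17 with 2 of 5 rule genes and -0.021 without the highest cells, and Hbb-bt -0.57 after thinning. The S-phase list in Vav-cre against WT was at -0.56 without the highest cells, -0.015 from log2 values and -0.76 without the largest cell, and against Tcf7-/- at -0.23 from log2 values. H2-Ab1 in chosen against other cells was at 0.072 without the highest cells, 0.17 without cells with B, dendritic or myeloid genes and 0.12 from log2 values. Without cells with B, dendritic or myeloid genes, H2-Eb1 in Tcf7-/- was at 0.14 and the progenitor list in Vav-cre against Tcf7-/- at 0.22. Apart from the settings that remove cells, thin counts or raise the filter, the cause was not tested. Of the 95 genes the text names, 45 were past 2-fold in Tcf7-/- against WT; with well-matched counts set to 0, 32 of them kept the call, 8 fell under 2-fold and 5 turned (Actn2, Ccr6, Dntt, Kit and Klrb1b), and with the rule at 10 counts 36, 7 and 2 (Kit and Serpinb1a). Of 57 in Vav-cre against WT, 44 kept the call without the largest cell, 10 fell under it and 3 turned (Gzma, Ifitm1 and Mcm2). Tcf7 in Vav-cre, not past 2-fold, went from a log2 ratio of 0.56 to -0.85 with well-matched counts set to 0 and -0.26 with the rule at 10 counts, and Unc13d in chosen against other Tcf7-/- cells from 2.68 to -1.29 and -1.03. The median of the Ly49 list stayed below 0 in both comparisons with WT under every alternative that gave a value. Leaving out cells with CD3 gave no value, since 1, 1 and 5 chosen cells remained. No paired analysis was possible because each genotype has 1 library, the numbers in the labels name wells and no test was run.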
